A study of Mus musculus with 6 samples.

Results

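The AP-1 and immediate early genes described here are Fos, Fosb, Jun, Junb, Jund, Egr1, Ier2, Atf3, Dusp1 and Nr4a1. They were chosen by name, and all 10 were found among the 15845 genes of the count table through their Entrez identifiers. They were measured by RNA-seq in mouse bone marrow LSK cells, named for lacking lineage markers and carrying Sca1 and c-Kit, among which are the blood stem cells and early multipotent progenitors. Of the 6 libraries, 3 came from mice given TP-3654, which the series title calls a Pim1 inhibitor, at 150 mg/kg/day for 6 weeks, and 3 from mice given vehicle, which the labels list as PBS. All the mice were C57BL/6 and carried Mx1Cre with 2 copies of the Jak2 V617F allele (Jak2VF/VF), so neither group has unmutated Jak2. V617F activates the JAK2 kinase without ligand and drives myeloproliferative neoplasms. Mx1Cre is driven by an interferon-responsive promoter that also acts outside blood cells. The design text calls the 3 libraries of a group biological replicates, and p-values measure the spread between them.

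AP-1 is a dimer of basic leucine zipper (bZIP) proteins, in which a JUN protein pairs with a FOS, ATF or JUN partner. Its genes belong to the immediate early genes, which are transcribed soon after a growth factor, cytokine or stress signal without new protein synthesis, largely through MAP kinases, serum response factor and CREB. Many of their mRNAs are short-lived, and several of the proteins, among them the phosphatase DUSP1, shut the response down again. In blood stem cells of the mouse, Egr1 is known to restrain division and migration. Immediate early genes are also known to be induced while tissue is dissociated and cells are sorted.

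The promoters of Fos, Fosb, Jun and Dusp1 are shown because these genes spanned wide ranges within a group and moved together between libraries. They are RefSeq sequences of GRCm38.p6, from 250 bases before to 50 bases after the annotated start, written 5′ to 3′ on the gene's own strand. Capitals mark TGANTCA (the AP-1 element), TGANNTCA (which includes the cAMP response element, CRE), TGACG on either strand (the CRE half-site) and TATAAA. Fos is at chr12:85473640-85473939 on the + strand, Fosb at chr7:19309996-19310295 on the - strand, Jun at chr4:95052173-95052472 on the - strand and Dusp1 at chr17:26508423-26508722 on the - strand.
Fos: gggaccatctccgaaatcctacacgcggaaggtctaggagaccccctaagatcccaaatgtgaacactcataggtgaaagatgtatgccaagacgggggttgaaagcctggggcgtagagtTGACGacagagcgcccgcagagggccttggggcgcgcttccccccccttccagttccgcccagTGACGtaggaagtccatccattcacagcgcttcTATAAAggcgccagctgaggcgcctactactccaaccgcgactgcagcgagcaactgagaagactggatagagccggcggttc
Fosb: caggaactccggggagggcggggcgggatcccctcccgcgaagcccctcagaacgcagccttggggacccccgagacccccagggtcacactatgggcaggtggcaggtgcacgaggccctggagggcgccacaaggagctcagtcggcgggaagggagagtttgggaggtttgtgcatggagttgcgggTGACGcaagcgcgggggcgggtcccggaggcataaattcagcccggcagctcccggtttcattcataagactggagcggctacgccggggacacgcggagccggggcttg
Jun: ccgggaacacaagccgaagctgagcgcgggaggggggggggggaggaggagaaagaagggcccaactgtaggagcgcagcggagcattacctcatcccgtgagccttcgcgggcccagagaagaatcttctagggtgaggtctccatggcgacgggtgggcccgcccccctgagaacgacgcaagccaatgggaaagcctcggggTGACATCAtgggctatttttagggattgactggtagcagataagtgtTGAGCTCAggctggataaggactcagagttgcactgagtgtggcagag
Dusp1: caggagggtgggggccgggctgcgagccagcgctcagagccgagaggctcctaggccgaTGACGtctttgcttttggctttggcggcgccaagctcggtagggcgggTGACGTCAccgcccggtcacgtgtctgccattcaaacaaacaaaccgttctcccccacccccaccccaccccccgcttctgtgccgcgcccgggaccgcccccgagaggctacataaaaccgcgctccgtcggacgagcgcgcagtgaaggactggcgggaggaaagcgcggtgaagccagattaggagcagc

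The promoter table matched 8 of the 10 genes, all but Egr1 and Ier2. Both strands were searched, and a TGACG inside a TGACGTCA was counted under both. TGACG was found in 6 of 8 promoters (Fos, Fosb, Junb, Atf3, Dusp1 and Nr4a1), against 20.8% of all 32851 promoters in the table. The whole element TGACGTCA was found in the Dusp1 promoter alone, with its first base 143 bases before the start, against 1.79% of all promoters. TGANNTCA was found in 3 of 8 (Jun, Jund and Dusp1), against 14.1%, and in Jun its match TGACATCA began 45 bases before the start. TATAAA was found in 2 of 8 (Fos and Junb), against 13.6%. TGANTCA and the CArG box, the serum response factor motif, were each found in 0 of 8, against 7.81% and 1.63% of all promoters. These matches describe the letters of the window only.

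AU-rich repeats of the pentamer ATTTA mark many short-lived mRNAs, so the 3′ untranslated regions (UTRs) were searched as well. The nonamer TTATTTATT was found in 2 of 10 members, Fos and Dusp1, against 8.01% of 12280 tested genes with an annotated 3′ UTR. At least 3 copies of ATTTA were found in 5 of 10 members (Fos, Jun, Atf3, Dusp1 and Nr4a1), against 38.2% of those genes, most of which have longer UTRs than Fos (815 bases, against a median of 1169). Per kilobase, Dusp1 had 5.80 copies, Nr4a1 5.52, Fos 4.91 and Junb 4.12, while Fosb had 0.434 and Ier2 had 0, against a median of 1.29. The sites of Fos (chr12:85477102-85477131, + strand, GRCm38) and Dusp1 (chr17:26506159-26506188, - strand) are shown as RNA-sense DNA, with overlapping ATTTA copies in capitals.
Fos site: gtgttttcaATTTATTTAttaagatggatt
Dusp1 site: ggagctggtccttATTTATTTAacaccccc

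Library totals ran from 20582057 to 25315596 counts, and 15138 to 15529 genes had a count in a library. The sort markers were present, with Kit at 436, 492 and 581 CPM in TP-3654 libraries 1 to 3 and 365, 377 and 375 CPM in vehicle libraries 1 to 3. CPM are counts scaled to a common library total with TMM factors (trimmed mean of M values). Markers of other cell types were mixed: most T and B cell genes were near 0, with Cd3e and Ms4a1 at 0 to 1 count per library. The B cell gene Cd79b went the other way, with 596 to 964 counts. Nkg7 had 2614 to 5743 counts, Hba-a1 2090 to 9098 and the basophil gene Prss34 142 to 4616. With the 10 genes removed, TP-3654 library 3 stood apart from the rest: across genes, its correlations with the other libraries were 0.943 to 0.962, against 0.976 to 0.987 among the 10 pairs without it. Vehicle library 2 had a median correlation of 0.982 with the others and did not stand apart. Markers of granulocyte-monocyte progenitors summed to 4037, 7617 and 2522 CPM in TP-3654 libraries 1 to 3 and 13137, 11695 and 10319 CPM in vehicle libraries 1 to 3. In bulk RNA, fewer cells of a type and less RNA per cell cannot be told apart.

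The 9 members abundant enough to test were each lower on average in TP-3654 LSK cells than in vehicle, by 0.20 to 1.39 on the log2 scale in edgeR (7 of them higher in limma-voom with sample weights), but the difference of none was larger than the spread between libraries. In edgeR's quasi-likelihood test with Benjamini-Hochberg adjustment over 13149 genes, 0 of 9 members passed an adjusted p of 0.05 (all genes: 0%). At an unadjusted p under 0.05 the count was also 0 of 9, against 17.1% of all genes tested (10.2% higher and 6.84% lower). DESeq2 called 0 of the 10 members, against 4.92% of all genes in its adjusted list, and limma-voom called 0 of 9 (all genes: 0%). When limma-voom weighted the samples it also called 0 of 9, against 1.12% of all genes. The TP-3654 and vehicle libraries overlapped for 10 of 10 members, while the groups did not overlap for 25.9% of all genes tested. The median log2 fold change of the 9 tested members was -0.77, against 0.01 for all genes tested. That median was 0.45 in limma-voom with sample weights, where 7 of the 9 log2 fold changes were positive, and -0.40 in limma-voom without them. In edgeR it was -0.36 without TP-3654 library 3, -1.18 without vehicle library 2 and -0.26 without vehicle library 3.

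**Figure D1:**
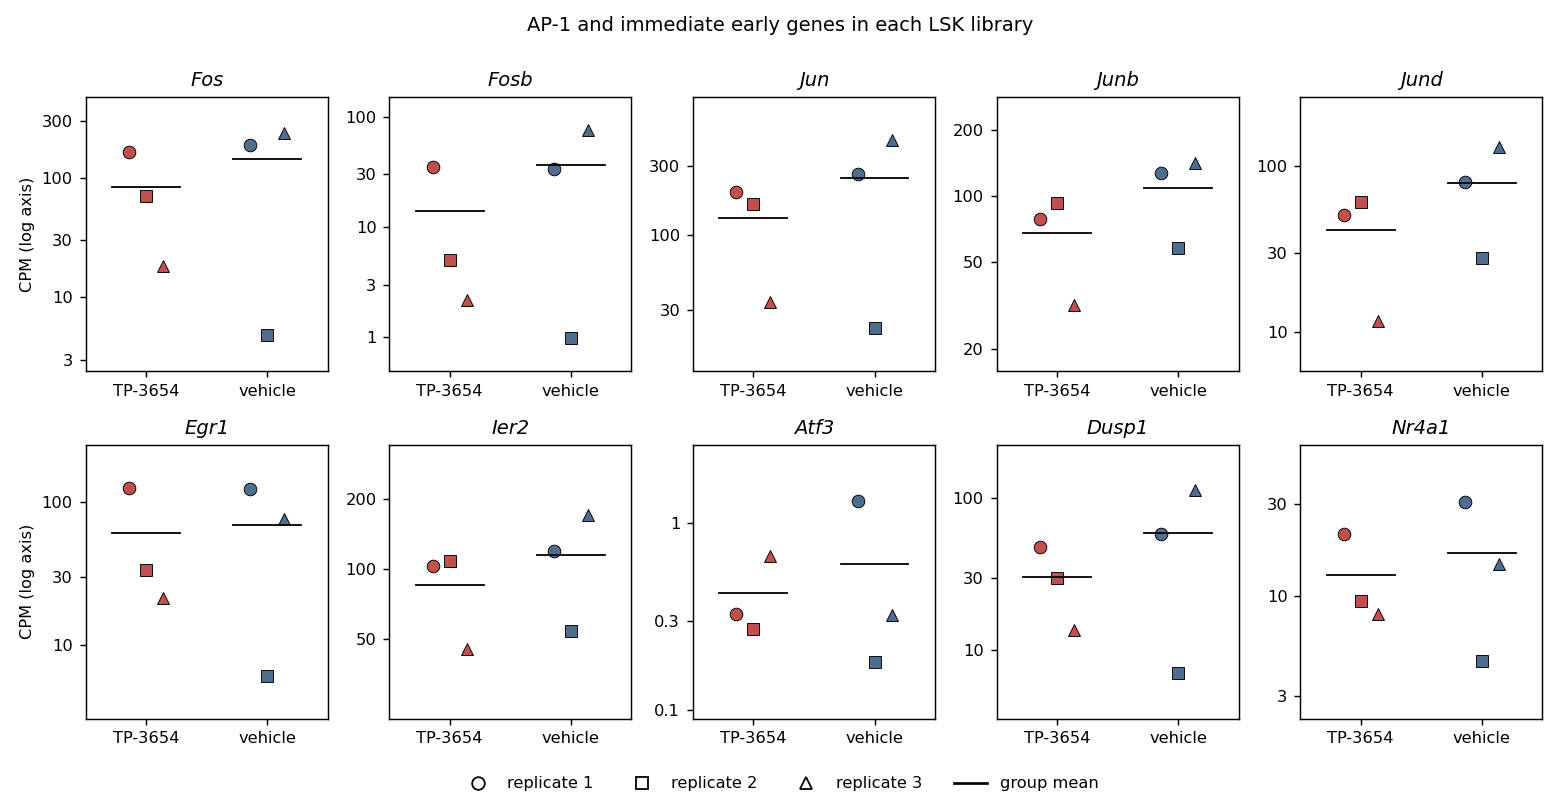
CPM of each gene in every library, on log axes that differ between panels. TP-3654 libraries stand left and vehicle libraries right, marker shapes give the replicate number and bars the group mean of 3. In 9 of the 10 panels, all but Atf3, vehicle replicate 2 is the lowest vehicle library and TP-3654 replicate 3 the lowest TP-3654 library.

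Fos encodes the FOS protein, which binds DNA only with a JUN-type partner. Fos had 164, 70.8 and 18.4 CPM in TP-3654 libraries 1 to 3, and 190, 4.82 and 237 CPM in vehicle libraries 1 to 3. Vehicle library 2 was the lowest of the 6, with 107 counts where vehicle library 3 had 5165, and the TP-3654 libraries lay inside the vehicle range. The means were 84.5 ± 73.9 CPM with TP-3654 and 144 ± 123 CPM with vehicle (SD, n = 3 each). TP-3654 over vehicle, the log2 fold change was -0.77 (SE 1.47, 95% interval -4.66 to 3.13, edgeR adjusted p = 0.810). For Fos it was -0.0009 in limma-voom without sample weights and 1.36 with them.

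Fosb encodes a second FOS-family subunit and had the widest spread of the 10. Fosb had 34.8, 5.03 and 2.20 CPM in TP-3654 libraries 1 to 3, and 33.6, 0.991 and 75.2 CPM in vehicle libraries 1 to 3. The ratio of the highest to the lowest library was 15.8 within TP-3654 and 76.0 within vehicle, and the groups overlapped. Its log2 fold change, -1.39 (SE 1.69, 95% interval -5.86 to 3.09, edgeR adjusted p = 0.692), was the farthest from 0 among the members.

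Jun encodes the subunit that pairs with FOS proteins or with itself. Jun had 198, 163 and 33.8 CPM in TP-3654 libraries 1 to 3, and 267, 22.5 and 453 CPM in vehicle libraries 1 to 3. TP-3654 library 3 and vehicle library 2 were the low ones, and the other 4 libraries lay at 163 CPM or above. For Jun the log2 fold change was -0.91 (SE 1.23, 95% interval -4.16 to 2.34, edgeR adjusted p = 0.722). Jun has no intron in GENCODE M21 and overlaps an antisense gene, Junos.

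Junb encodes a JUN protein that, in the mouse, limits the expansion of myeloid cells. Junb had 78.7, 92.5 and 31.6 CPM in TP-3654 libraries 1 to 3, and 127, 58.0 and 142 CPM in vehicle libraries 1 to 3. It was the steadiest member within vehicle, where the highest library was 2.44 times the lowest, and vehicle library 2 still fell inside the TP-3654 range. The log2 fold change was -0.69 (SE 0.53, 95% interval -2.06 to 0.69, edgeR adjusted p = 0.534), which was the smallest adjusted p of the members. Junb overlaps Prdx2 on the opposite strand, and Prdx2 had 366, 319 and 280 CPM in TP-3654 libraries 1 to 3 and 342, 330 and 364 CPM in vehicle libraries 1 to 3. The strand setting of the counting is not given in the sources used here, so reads of Jun, Junb, Jund and Dusp1 cannot be told apart from those of genes that overlap them on the other strand.

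Jund encodes the JUN protein that is usually present in resting cells. Jund had 50.9, 61.2 and 11.6 CPM in TP-3654 libraries 1 to 3, and 79.9, 27.9 and 131 CPM in vehicle libraries 1 to 3. Here the lowest of the 6 was TP-3654 library 3, below vehicle library 2, and the groups overlapped. For Jund the log2 fold change was -0.94 (SE 0.86, 95% interval -3.21 to 1.33, edgeR adjusted p = 0.593). Without TP-3654 library 3 it was -0.52.

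Egr1 encodes a zinc finger transcription factor. Egr1 had 126, 33.2 and 21.4 CPM in TP-3654 libraries 1 to 3, and 124, 6.08 and 76.4 CPM in vehicle libraries 1 to 3. The highest library of each group stood at almost the same level, and the lowest was vehicle library 2. The log2 fold change was -0.20 (SE 1.25, 95% interval -3.50 to 3.11, edgeR adjusted p = 0.949). Its sign turned without TP-3654 library 2 (0.10), without TP-3654 library 3 (0.19) and without vehicle library 1 (0.55).

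Nr4a1 encodes an orphan nuclear receptor. Nr4a1 had 21.1, 9.37 and 8.02 CPM in TP-3654 libraries 1 to 3, and 30.8, 4.55 and 14.6 CPM in vehicle libraries 1 to 3. Vehicle library 1 was the highest and vehicle library 2 the lowest, with the TP-3654 libraries between them. For Nr4a1 the log2 fold change was -0.38 (SE 0.78, 95% interval -2.37 to 1.61, edgeR adjusted p = 0.821), and it was 0.42 without vehicle library 1.

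Ier2 encodes a small nuclear protein and has no intron. Ier2 had 102, 108 and 45.5 CPM in TP-3654 libraries 1 to 3, and 120, 53.8 and 171 CPM in vehicle libraries 1 to 3. TP-3654 library 3 was the lowest of the 6, and the ratio of highest to lowest was 2.37 within TP-3654 and 3.17 within vehicle. The log2 fold change was -0.43 (SE 0.55, 95% interval -1.84 to 0.98, edgeR adjusted p = 0.706).

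Dusp1 encodes a nuclear phosphatase that switches off MAP kinases. Dusp1 had 48.0, 29.8 and 13.6 CPM in TP-3654 libraries 1 to 3, and 57.8, 7.07 and 112 CPM in vehicle libraries 1 to 3. The vehicle libraries spanned a 15.9-fold range that contained the TP-3654 libraries. The log2 fold change was -0.96 (SE 1.07, 95% interval -3.78 to 1.87, edgeR adjusted p = 0.662). Ergic1 overlaps Dusp1 on the opposite strand, with 172, 176 and 175 CPM in TP-3654 libraries 1 to 3 and 139, 181 and 163 CPM in vehicle libraries 1 to 3.

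Atf3 encodes a stress-induced bZIP factor and was close to the limit of detection. Atf3 had 7, 7 and 13 counts in TP-3654 libraries 1 to 3, and 33, 4 and 7 counts in vehicle libraries 1 to 3. The filter on low counts removed it, so edgeR gave no test. A count of 3 corresponds to 0.119 to 0.146 CPM, and the libraries of Atf3 lay at 0.180 to 1.30 CPM. DESeq2, which kept it, gave a log2 fold change of -0.54 (adjusted p = 0.797). Its order of libraries differed from the other members, with TP-3654 library 3 the highest of its group.

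For the 10 genes, the two-sided exact permutation test of log2 CPM over the 20 splits of 3 against 3 libraries gave p-values of 0.3 (Junb) to 1.0 (Fos and Nr4a1). The smallest p this design allows is 0.1. Without TP-3654 library 3, the log2 fold changes of the 9 tested members lay between -0.90 (Fosb) and 0.19 (Egr1), with Fos at -0.31 and Jun at -0.48. Without vehicle library 2 they lay between -1.98 (Fosb) and -0.75 (Egr1), with Fos at -1.35 and Jun at -1.47. No member passed an adjusted p of 0.05 in either fit.

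**Figure D2:**
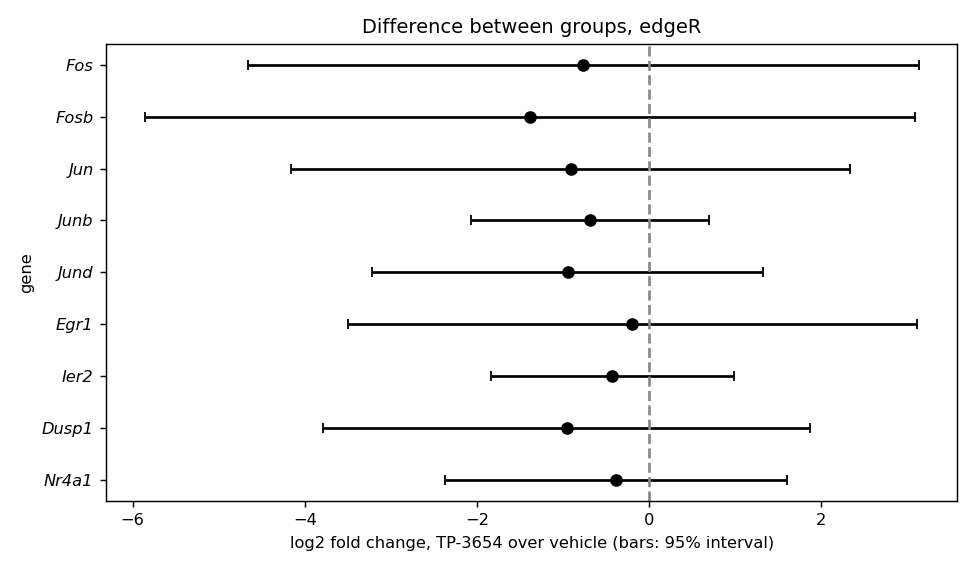
Log2 fold change of TP-3654 over vehicle for the 9 tested members (points, edgeR) with 95% intervals, 3 libraries per group. Every interval crosses 0, and the widest, that of Fosb, runs from -5.86 to 3.09.

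The members differed far more between libraries of 1 group than most genes did. The SD of log2 CPM within groups, pooled over TP-3654 and vehicle, was 2.71 for Fosb, 2.49 for Fos, 1.91 for Jun and 1.60 for Dusp1. It was 1.23 for Jund, 1.11 for Nr4a1, 0.78 for Ier2 and 0.77 for Junb. The median over all genes tested was 0.20 and the 95th percentile 0.78, so 7 of the 9 lay beyond that percentile. Among the 9926 genes with a mean log2 CPM of at least 3, Fosb ranked 7 and Fos 8 by this spread, Jun 14 and Egr1 15, and 4 members were among the 20 widest. The spread was wider within vehicle than within TP-3654 for 7 of the 9, and narrower for Junb (0.70 within vehicle, 0.83 within TP-3654) and Jund (1.14 within vehicle, 1.31 within TP-3654).

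**Figure D3:**
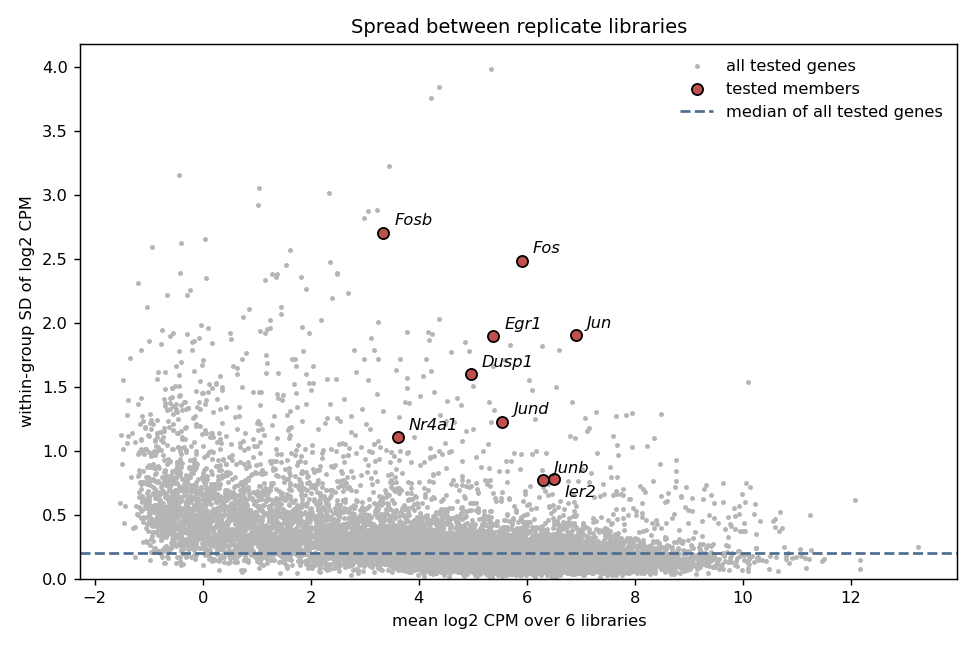
SD of log2 CPM within groups against mean log2 CPM for all tested genes, with the 9 tested members marked. The members lie between 0.77 (Junb) and 2.71 (Fosb), and the median over all genes is 0.20.

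The 9 tested members rose and fell together from library to library. Centred on its own mean over the 6 libraries, the average member stood at 0.81, -0.02 and -1.42 log2 CPM in TP-3654 libraries 1 to 3, and at 1.13, -1.94 and 1.44 in vehicle libraries 1 to 3. The median of all genes stayed between -0.01 and 0.02 in every library. Summed over the 10 genes, the level was 824, 573 and 187 CPM in TP-3654 libraries 1 to 3 and 1031, 186 and 1412 CPM in vehicle libraries 1 to 3. TP-3654 library 3 and vehicle library 2, the low libraries of their groups, thus had almost the same sum. Gene by gene they differed: Egr1 had 21.4 CPM in TP-3654 library 3 and 6.08 CPM in vehicle library 2. Jund went the other way, with 11.6 and 27.9 CPM.

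Within vehicle, library 2 was the lowest for 9 of 9 tested members, against 30.2% of all genes tested. Within TP-3654, library 3 was the lowest for 9 of 9, against 44.7% of all genes, and both held for 9 of 9 members and 14.2% of all genes. The highest vehicle library was 3 for Fos, Fosb, Jun, Junb, Jund, Ier2 and Dusp1, and 1 for Egr1 and Nr4a1. The highest TP-3654 library was 1 for Fos, Fosb, Jun, Egr1, Dusp1 and Nr4a1, and 2 for Junb, Jund and Ier2. Over the 6 libraries, Pearson's r of log2 CPM between members had a median of 0.89 over the 36 pairs, from 0.59 (Jund and Nr4a1) to 0.99 (Junb and Jund). With each group's mean removed, the median was 0.91 and the lowest 0.63. These pairs share the same 6 libraries, which hold 2 low ones, so r is given as a description.

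**Figure D4:**
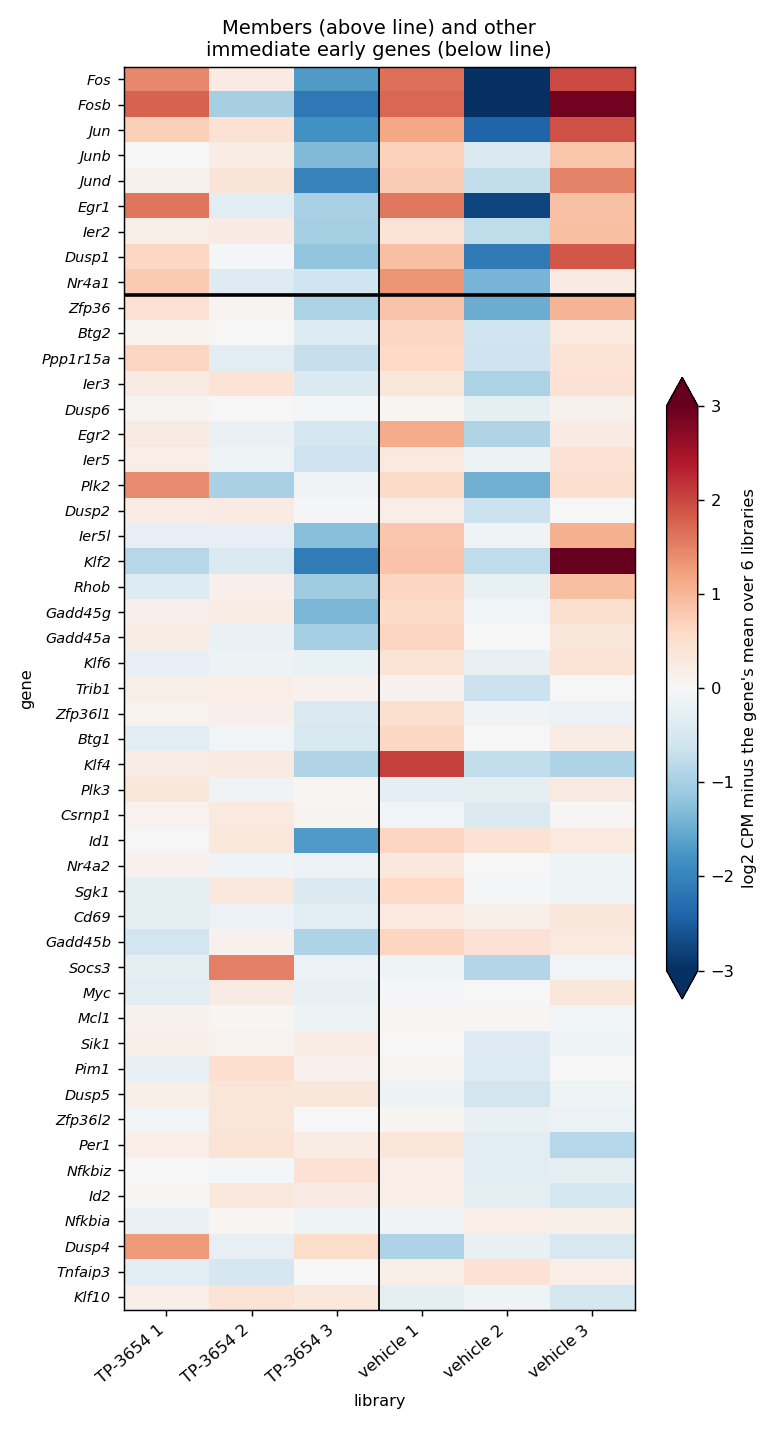
Log2 CPM of each tested member (above the line) and of the other immediate early genes tested (below the line). Each gene is centred on its mean over 6 libraries, with TP-3654 libraries left and vehicle libraries right. The average of the members is -1.42 in TP-3654 library 3 and -1.94 in vehicle library 2, the low points of the 2 groups.

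The makeup of AP-1 was compared per length, in RPKM (CPM per kilobase of annotated exon). Fos had 69.8, 30.1 and 7.84 RPKM in TP-3654 libraries 1 to 3, and 80.7, 2.05 and 101 RPKM in vehicle libraries 1 to 3. Fosl2, which encodes the FOS-family protein FRA2, had 2.39, 3.02 and 2.32 RPKM in TP-3654 libraries 1 to 3 and 3.46, 2.63 and 2.09 RPKM in vehicle libraries 1 to 3. Fosl2 therefore varied little while Fos varied widely, and Fosl1 was at most 0.04 RPKM. Of the summed FOS-family level, Fos made up 89.7%, 88.7% and 74.4% in TP-3654 libraries 1 to 3, and 90.1%, 42.3% and 87.7% in vehicle libraries 1 to 3. In vehicle library 2, Fosl2 made up 54.4%, the largest share in that library.

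Among the JUN genes, Jun made up 48.9%, 39.9% and 33.9% in TP-3654 libraries 1 to 3, and 44.8%, 14.4% and 50.4% in vehicle libraries 1 to 3. Junb made up 27.0%, 31.4% and 43.9% in TP-3654 libraries 1 to 3, and 29.6%, 51.5% and 21.8% in vehicle libraries 1 to 3. Junb was thus the most abundant JUN mRNA per length in TP-3654 library 3 and vehicle library 2, and Jun in the other 4 libraries. With the length of the longest annotated transcript instead of all exons, Junb (36.8%) and Jun (36.7%) had almost the same share in TP-3654 library 2, with Junb ahead. By that length the shares in vehicle library 2 were 35.5% for Fos and 12.6% for Jun.

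**Figure D5:**
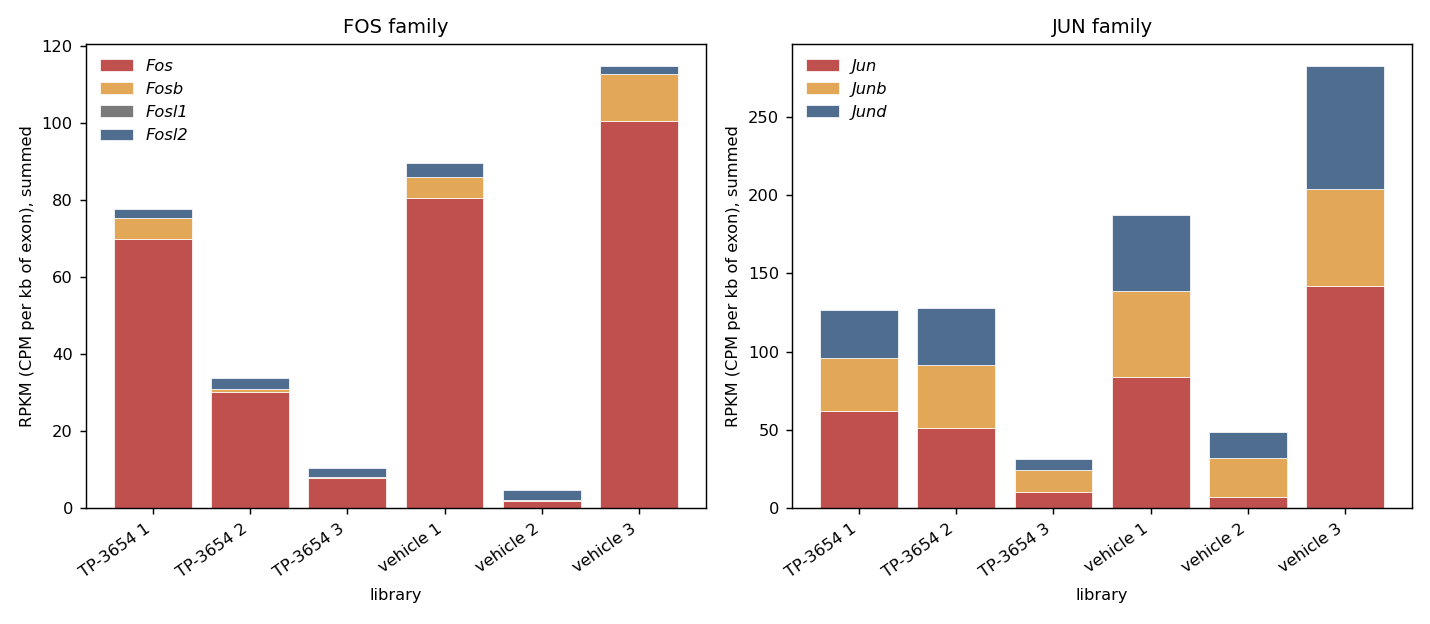
RPKM of each gene, stacked to the sum of the FOS family and of the JUN family, per library, TP-3654 left and vehicle right. Fos makes up 42.3% of its family in vehicle library 2 and 74.4% to 90.1% in the other libraries.

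The gene whose pattern was most like the members' mean was Zfp36 (r = 0.996 over 6 libraries, first of 9637 genes ranked), itself an immediate early gene, whose protein binds AU-rich elements of mRNAs and speeds their decay. Zfp36 had 155, 118 and 58.3 CPM in TP-3654 libraries 1 to 3, and 203, 39.9 and 229 CPM in vehicle libraries 1 to 3. Its low libraries were the same as those of the members, and its log2 fold change was -0.51 (SE 0.77, edgeR adjusted p = 0.753). The next were Cryzl1, Abraxas1, Iqcc, Zfp346 and Rnf25, with r of 0.984 to 0.971. Their highest library was 1.18 to 1.60 times their lowest, against 5.73 times for Zfp36.

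Other immediate early genes were taken from a list by role, of which 40 of 47 could be tested. In edgeR 0 passed an adjusted p of 0.05. At an unadjusted p under 0.05, 4 were higher and 6 lower with TP-3654, beside 10.2% and 6.84% of all genes. DESeq2 called 1 higher (Klf10) and 3 lower (Cd69, Btg1 and, named with its values known, Gadd45b), against 4.92% of all genes, and limma-voom called 0. The list's median log2 fold change was -0.16, against 0.01 for all genes. The groups did not overlap for 4 genes that were higher and 5 that were lower, against 25.9% of all genes. The 4 genes with the smallest p are described next.

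Klf10, a zinc finger repressor induced by TGF-beta, had 57.0, 65.0 and 61.0 CPM in TP-3654 libraries 1 to 3 and 40.8, 45.1 and 34.2 CPM in vehicle libraries 1 to 3 (log2 fold change 0.61, SE 0.13, edgeR adjusted p = 0.0875). Cd69, an early activation antigen, averaged 18.5 ± 0.960 CPM with TP-3654 and 26.9 ± 1.48 CPM with vehicle (SD, n = 3 each; log2 fold change -0.54, SE 0.13, edgeR adjusted p = 0.113). Klf10 was highest among the vehicle libraries in library 2, where Fos was lowest. Btg1, an antiproliferative gene, had a log2 fold change of -0.60 (SE 0.18, edgeR adjusted p = 0.159), and Dusp5, a nuclear ERK phosphatase, one of 0.56 (SE 0.17, edgeR adjusted p = 0.172).

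Of these 40 genes, 26 were lowest in vehicle library 2 (65.0%) and 17 were lowest both there and in TP-3654 library 3 (42.5%, against 14.2% of all genes). An r of at least 0.7 with the members' mean was reached by 15 of 40 (37.5%) and by 714 of the 13140 tested genes that are not members (5.43%). Besides Zfp36, and chosen after their values were seen, these included Btg2 (r = 0.94), Ppp1r15a (0.92), Ier3 (0.92) and Dusp6 (0.90). Ier3, a stress response gene, had 34.2, 38.3 and 21.3 CPM in TP-3654 libraries 1 to 3 and 36.4, 14.9 and 38.8 CPM in vehicle libraries 1 to 3.

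Other bZIP genes showed little of this pattern. Of 20 listed, 19 were tested, and edgeR called 0. At an unadjusted p under 0.05, 0 were higher and 1 lower, beside 10.2% and 6.84% of all genes. DESeq2 called 0, against 4.92% of all genes, and limma-voom called 0 (all genes: 0%). The gene that was lower was Atf6b, an endoplasmic reticulum stress factor, with 100, 111 and 101 CPM in TP-3654 libraries 1 to 3 and 131, 129 and 142 CPM in vehicle libraries 1 to 3 (log2 fold change -0.36, SE 0.10, edgeR adjusted p = 0.148). Crem, Batf2 and Maff followed, with log2 fold changes of -0.57, 0.43 and -0.51 and edgeR adjusted p from 0.342 to 0.398. Vehicle library 2 was the lowest vehicle library for 4 of the 19 (21.1%).

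For the kinases and serum response factor genes upstream of the members, all 33 listed were tested and edgeR called 0. At an unadjusted p under 0.05, 5 were higher and 2 lower, beside 10.2% and 6.84% of all genes. DESeq2 called 1 higher (Mapk12) and 2 lower (Mapkapk2 and Mapkapk3), against 4.92% of all genes. Mapk12 was also the 1 gene called by limma-voom when samples were weighted, against 1.12% of all genes. Without weights 0 were called (all genes: 0%). Mapk12, a member of the stress-activated MAP kinases, had 4.49, 4.49 and 4.96 CPM in TP-3654 libraries 1 to 3 and 1.77, 1.22 and 2.25 CPM in vehicle libraries 1 to 3 (log2 fold change 1.41, SE 0.31, edgeR adjusted p = 0.0875). Mapkapk2, a kinase activated by such MAP kinases, had 336, 394 and 349 CPM in TP-3654 libraries 1 to 3 and 456, 539 and 542 CPM in vehicle libraries 1 to 3 (log2 fold change -0.51, SE 0.12, edgeR adjusted p = 0.111). Over the list, the groups did not overlap for 5 genes that were higher and 5 that were lower, against 25.9% of all genes. Its relative Mapkapk3 had a log2 fold change of -0.46 (SE 0.11, edgeR adjusted p = 0.117).

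Heat shock and other stress genes were counted in the same way. Of 18 listed, 16 were tested, and edgeR called 0 (all genes: 0%). At an unadjusted p under 0.05 the count was 0, against 17.1% of all genes tested. DESeq2 called 0, against 4.92% of all genes, and limma-voom called 0 (all genes: 0%). Vehicle library 2 was the lowest vehicle library for 3 of the 16 (18.8%, against 30.2% of all genes), and TP-3654 library 3 the lowest of its group for 8 of 16 (50%, against 44.7%). Both held for 2 of 16 (12.5%, against 14.2%), Sqstm1 and, named with its values known, Hmox1. The list summed to 10953, 9984 and 15050 CPM in TP-3654 libraries 1 to 3, and 11918, 11664 and 10984 CPM in vehicle libraries 1 to 3. Hspa5, Bag3, Hsph1 and Sqstm1 had the smallest p, with log2 fold changes of -0.58 to -0.17 and edgeR adjusted p of 0.308 to 0.463. The inducible chaperone gene Hspa1a, chosen after its values were seen, had 65.2, 13.4 and 10.6 CPM in TP-3654 libraries 1 to 3, and 71.7, 66.2 and 24.5 CPM in vehicle libraries 1 to 3. Hspa1a was thus low in TP-3654 library 3, as the members were, and high in vehicle library 2, where the members were lowest.

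Across the marker lists, neutrophil and monocyte genes summed to 83.4, 176 and 157 CPM in TP-3654 libraries 1 to 3 and 346, 158 and 137 CPM in vehicle libraries 1 to 3. Of that list, S100a8 had 10, 238 and 22 counts in TP-3654 libraries 1 to 3 and 990, 10 and 10 counts in vehicle libraries 1 to 3, and Ly6g was at 0 in 4 of 6 libraries. Erythroid genes summed to 1277, 591 and 617 CPM in TP-3654 libraries 1 to 3 and 1170, 665 and 572 CPM in vehicle libraries 1 to 3. Hba-a1, with 421, 118 and 332 CPM in TP-3654 libraries 1 to 3, was a large part of that sum. Of the 9 erythroid genes tested, 6 were lowest of their group in TP-3654 library 3 (66.7%, against 44.7% of all genes). Klf1, 1 of these 6, had 58.4, 46.3 and 5.88 CPM in TP-3654 libraries 1 to 3. In vehicle library 2, 2 of the 9 were lowest of their group (22.2%, against 30.2%). Mast cell and basophil genes summed to 324, 446 and 114 CPM in TP-3654 libraries 1 to 3 and 408, 452 and 369 CPM in vehicle libraries 1 to 3. This sum, like that of the granulocyte-monocyte progenitor genes, was lowest in TP-3654 library 3, as were the 9 tested members within TP-3654. Gene by gene, 4 of 8 mast cell and basophil genes were lowest of their group there (50%, against 44.7% of all genes). The same held for 6 of 7 granulocyte-monocyte progenitor genes tested (85.7%). Csf3r of that list went the other way, with 184, 236 and 308 CPM in TP-3654 libraries 1 to 3. In vehicle library 2, where the members were lowest within vehicle, neither of these sums was the lowest of the 3. Of 10 neutrophil and monocyte genes tested, 6 were lowest of their group in vehicle library 2 (60%, against 30.2% of all genes). Only 1 of the 10 was lowest in TP-3654 library 3 (10%, against 44.7%). Of 5 megakaryocyte genes tested, 4 were lowest in TP-3654 library 3 (80%). In vehicle library 2 it was 2 of 5, and 2 of 5 were lowest in both (40%, against 14.2% of all genes). The part of these cell types in the members' levels was not tested.

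The authors' deposited table of the same comparison listed 699 of 13154 genes under an adjusted p of 0.05, with 0 of the 10 members among them. In the authors' deposited table, the log2 fold changes ran from -1.13 for Fosb to 0.05 for Egr1, with -0.45 (SE 1.24) for Fos and -0.56 (SE 1.06) for Jun. Its mean levels differed from those of the deposited counts: they lay within 1% for 2.36% of 12845 genes, and for Fos the authors' deposited table gives 1756 normalized counts where the counts give 2572.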

How the data were processed

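Poly(A) RNA from sorted LSK cells was sequenced in 6 libraries, 3 with TP-3654 and 3 with vehicle, after lineage depletion and an NEBNext Ultra II preparation, per the labels' protocols. The submitters' processing notes name HISAT2 2.1.0, SAMtools 1.9.0, DESeq2 and mm10/GRCm38. The read counter, its annotation and whether it used strand were not given in the sources used here. The authors deposited whole-number read counts per Entrez gene, not normalized, and a results table. Per the file headers, this table gives each gene a mean of normalized counts (a signal value), a log2 fold change and its error, a Wald statistic (a score), and a raw and an adjusted p-value. Set against the counts, its sign is TP-3654 over vehicle.

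Symbols came from the authors' table for 12995 genes and from RefSeq (GRCm38.p6) for 2844, and 6 had none. The counts were fitted with edgeR 4.0.16 in R 4.3.3 (TMM factors, filterByExpr, robust quasi-likelihood fit, Benjamini-Hochberg adjustment over 13149 genes, called under 0.05), and the filter removed 2696 genes. Fold changes are TP-3654 over vehicle on the log2 scale. The standard error was taken from the test as the fold change over the root of F. Log2 CPM used a prior count of 2 and the exact permutation test a pseudocount of 0.5. Library totals of 20582057 to 25315596 counts put the limit of detection, 3 counts, at 0.119 to 0.146 CPM, for counting error only. Alternatives were DESeq2 1.42.0, limma-voom (limma 3.58.1) with and without sample weights, other scalings and filters, a replicate block and fits without each library.

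UTRs, exon lengths and gene overlaps came from GENCODE M21 (GRCm38). The text names all 10 members, the 4 genes with the smallest p of each other list, the 6 genes most like the members' mean (mean log2 CPM of at least 3) and the sort markers, while any other gene belongs to the FOS family, is a cell type marker, overlaps a member or is said to be picked with its values known. Of the genes this rule names, 1 is not reported here. The members and lists were chosen with earlier results of these data known. The threshold of 0.7 on r was also set after values were seen.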

Additional observations from a re-analysis of the deposited data

How the results depend on the processing

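Of 265 values recomputed under alternatives, 235 kept their direction and side of the threshold or, with no test, moved by little or by less than the spread between libraries. No member passed an adjusted p of 0.05, or an unadjusted p under 0.05, in any of them. Counts over all genes did move: against 0 higher and 0 lower in edgeR, DESeq2 called 401 higher and 256 lower, limma-voom with sample weights 101 and 46, and edgeR without a filter on low counts 4 and 1. Leaving out 1 library gave 0 to 19 higher and 0 to 13 lower. DESeq2 called 4 of the other immediate early genes and 3 of the upstream genes, where edgeR called 0 of each. Under limma-voom with sample weights the log2 fold change turned positive for Fos (1.36), Fosb (0.51), Jun (0.72), Egr1 (1.10), Ier2 (0.13), Dusp1 (0.45) and Nr4a1 (0.29), and the median of the 9 tested members was 0.45. Limma-voom without weights gave 0.19 for Egr1 and a median of -0.40. The cause was not tested. Leaving out 1 library, Egr1 ran from -1.34 to 0.55 and Nr4a1 from -0.94 to 0.42, and the median of the 9, in edgeR, from -1.23 (without TP-3654 replicate 1) to -0.26 (without vehicle replicate 3).

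The correlations of same-numbered deviations from the group means were 0.10, -0.07 and -0.001, inside the range of differently numbered ones (-0.13 to 0.12). With 3 libraries a group, these values cannot settle whether the replicate numbers pair the libraries. With the replicate block, 1 gene was higher and 2 lower, 0 of them members, and the log2 fold change of Egr1 was 0.13. With 3 libraries a group and intervals this wide, the data cannot show differences of the size seen between libraries of 1 group. Atf3, at 4 to 33 counts, is limited by depth.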
